A study of Mus musculus with 8 samples.

Results

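The 84 genes described here carry the symbols of nuclear genes for subunits of the mitochondrial respiratory chain and of ATP synthase. Some, such as Ndufa4l2 and Cox7a2l, encode relatives of subunits, and all are called subunit genes below. They are the genes on the array whose symbols begin with Nduf followed by a, b, c, s or v, with Uqcr, with Cox4 to Cox8 or with Atp5, together with Sdha, Sdhb, Sdhc and Sdhd. Assembly factors named Ndufaf were left out. They were taken from 19752 genes named on the array, and where a gene had several probes the brightest over all arrays stood for it. Complex I (NADH dehydrogenase) had 38 genes, complex II (succinate dehydrogenase) 4, complex III (cytochrome bc1) 8, complex IV (cytochrome c oxidase) 18 and complex V (ATP synthase) 16. Genes were placed by symbol, so Ndufa4 and Ndufa4l2 are counted with complex I and Cox7a2l with complex IV.

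Messenger RNA of T cells from mouse spleen was measured on 8 single-colour Agilent arrays, 2 for each of 4 groups. Wild-type C57BL/6 cells (Lsp1+/+, WT) and cells of Lsp1-deficient mice (Lsp1-/-, KO), whose line had been crossed onto C57BL/6 for 10 generations, were left unstimulated in medium or given anti-CD3 and anti-CD28 antibodies for 6 h to trigger the antigen receptor complex together with a costimulatory signal. Mice were 8 to 12 weeks old unless otherwise specified, control mice were age- and sex-matched, and RNA integrity numbers all exceeded 9.5. Lsp1 encodes a leukocyte protein that binds filamentous actin. The labels do not tie replicates to separate animals, so the p-values below measure the spread between these arrays, which may be technical.

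Complex I and complex II pass electrons from NADH and succinate to ubiquinone, complex III passes them on to cytochrome c, and complex IV hands them to oxygen. Complexes I, III and IV pump protons across the inner mitochondrial membrane, and ATP synthase uses the returning protons to make ATP. Resting T cells rely largely on this oxidative route. After stimulation through the antigen receptor, T cells raise glycolysis and enlarge their mitochondria over the following day. Each complex other than complex II also holds subunits encoded by mitochondrial DNA, and none of the 13 such genes had a named probe here.

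Values are log2 signals relative to the 75th percentile of signal on the same array, and differences are on the log2 scale with the standard error (SE) of a limma fit over all arrays. A gene was called at an adjusted p (Benjamini-Hochberg over 15134 tested genes) below 0.05. Of the 84 subunit genes 81 passed the filter on dim probes, and all 81 were well above background on all 8 arrays. The other 3, Cox7b2, Cox8b and Cox8c, which encode alternative forms of cytochrome c oxidase subunits, were not well above background on both arrays of any group. The level of a probe cannot be set against that of another, so each gene is compared only with itself across arrays.

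Several libraries stood apart in genes of other cell types. All 18 T cell markers were well above background on every array. The median of 12 neutrophil markers, relative to WT medium, was 4.41 on KO medium replicate 2 and 3.57 on KO stimulated replicate 2, against -0.40 and -1.45 on the other KO arrays. Erythroid and platelet markers (medians 1.79 and 2.54), monocyte and macrophage markers (0.81 and 0.99) and cell cycle genes (1.24 and 1.26) were also raised on those replicate 2 arrays. T cell markers stood at -0.37 and -0.36 there, and at 0.07 and -0.10 on the other KO arrays. On the WT arrays they stood at -0.03 and 0.03 in medium and at -0.30 and -0.19 after stimulation. B cell markers stood lower on both KO arrays of each condition, at -0.48 and -0.62 in medium (WT 0.24 and -0.24) and -1.01 and -0.88 after stimulation (WT -0.18 and -0.31). Natural killer cell markers did so too, at -0.34 and -0.50 in medium (WT 0.07 and -0.07) and -0.71 and -0.76 after stimulation (WT -0.11 and -0.41). The part of these cells in the genotype comparisons of subunit genes was not tested. In a mixture, fewer cells of a type and less RNA per cell cannot be told apart. Lsp1 itself read 3.48 to 3.69 on the KO arrays and 6.99 to 7.48 on the WT arrays, a difference of -3.79 ± 0.13 in medium (limma, adjusted p = 0.00126). Where the deletion lies relative to the probe was not determined here.

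Promoter letters did not enter the choice of the subunit genes, and some stood in a larger share of their promoter windows than of all windows. RefSeq promoter windows of assembly GRCm38.p6, from 250 bases before to 50 after a gene's start, were at hand for 68 of the 84. The letters GCGCA, any 1 base and GCGC, the palindrome bound by nuclear respiratory factor 1 (Nrf1), stood in 17 of them (25%), against 5.19% of the windows of 27025 genes. CCGGAAG, the core bound by ETS factors such as the GA-binding protein, stood in 17 (25%, against 9.93%), and AAGATGGC, bound by YY1, in 10 (14.7%, against 3.19%). At least 1 of these 3 was present in 38 windows (55.9%, against 16.4%). The E-box CACGTG, bound by Myc and Usf factors, stood in 7.35% of the subunit windows and 8.09% of all, CCAAT in 42.6% and 41.1%, and TATAAA in 11.8% and 15.7%. Both strands were searched, and a match is a description of letters, not of a bound site. The 27025 genes include genes not tested on these arrays, and the shares among expressed genes alone were not taken.

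The bases before the start are printed for 4 of these genes as examples. Sdha and Cox6a1 show repeated Nrf1 letters, Cox6a1 also an ETS core, and Sdhd shows Nrf1 letters with an ETS core. Ndufab1, the subunit gene with the largest upward change on stimulation in KO cells, shows no match to the Nrf1, ETS or YY1 letters. Windows with YY1 letters or with an ETS core alone are not among the 4. Capitals mark matches to the Nrf1 letters and to the ETS core, whose reverse complement reads CTTCCGG. All 4 lie on the minus strand of GRCm38.p6 and are written 5′ to 3′ in the direction of the gene.
Sdha, chr13:74350241-74350490: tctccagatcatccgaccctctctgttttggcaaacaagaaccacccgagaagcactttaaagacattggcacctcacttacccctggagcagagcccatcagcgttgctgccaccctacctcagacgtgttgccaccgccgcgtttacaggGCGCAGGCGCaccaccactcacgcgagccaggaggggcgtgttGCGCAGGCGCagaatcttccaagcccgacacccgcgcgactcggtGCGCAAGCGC
Cox6a1, chr5:115348959-115349208: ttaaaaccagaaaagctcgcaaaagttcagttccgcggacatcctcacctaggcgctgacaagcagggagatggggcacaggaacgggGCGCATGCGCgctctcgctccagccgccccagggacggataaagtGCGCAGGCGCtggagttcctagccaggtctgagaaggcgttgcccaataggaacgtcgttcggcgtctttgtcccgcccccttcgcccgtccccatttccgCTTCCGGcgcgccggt
Sdhd, chr9:50603850-50604099: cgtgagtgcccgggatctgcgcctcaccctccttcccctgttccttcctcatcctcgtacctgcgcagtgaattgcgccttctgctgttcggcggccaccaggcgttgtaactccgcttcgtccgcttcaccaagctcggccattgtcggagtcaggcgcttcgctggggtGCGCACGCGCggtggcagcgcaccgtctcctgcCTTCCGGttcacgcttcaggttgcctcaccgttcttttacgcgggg
Ndufab1, chr7:122101849-122102098: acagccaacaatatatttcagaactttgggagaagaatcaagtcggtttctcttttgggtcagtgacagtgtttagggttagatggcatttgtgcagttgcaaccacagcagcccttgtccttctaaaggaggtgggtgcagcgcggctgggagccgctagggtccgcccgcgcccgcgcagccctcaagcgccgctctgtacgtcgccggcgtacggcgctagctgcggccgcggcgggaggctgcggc
Sdha holds 3 matches to the Nrf1 letters in this stretch, Cox6a1 holds 2 and an ETS core, and Sdhd holds 1 of each. The response to stimulation is given here by these letters, as a description. The 38 genes with a match had a median log2 fold change of 0.10 in WT and 0.11 in KO cells, and the 28 tested genes whose windows had none had 0.10 and 0.09.

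Stimulation for 6 h came with small changes in the transcripts of the respiratory chain. In WT cells 0 of 81 subunit genes were called, while 10.3% of all tested genes were (limma, adjusted p below 0.05). In KO cells 0 of 81 were called, against 8.13% of all genes. At an unadjusted p below 0.05 there were 8 subunit genes in WT cells, or 9.88% against 29.5% of all genes. Of these 6 were higher and 2 lower, where 13.2% of all genes were higher and 16.3% lower. In KO cells there were 7, or 8.64% against 25.4%, with 5 higher and 2 lower, where 12.7% of all genes were higher and 12.7% lower. No other tool was run.

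**Figure D1:**
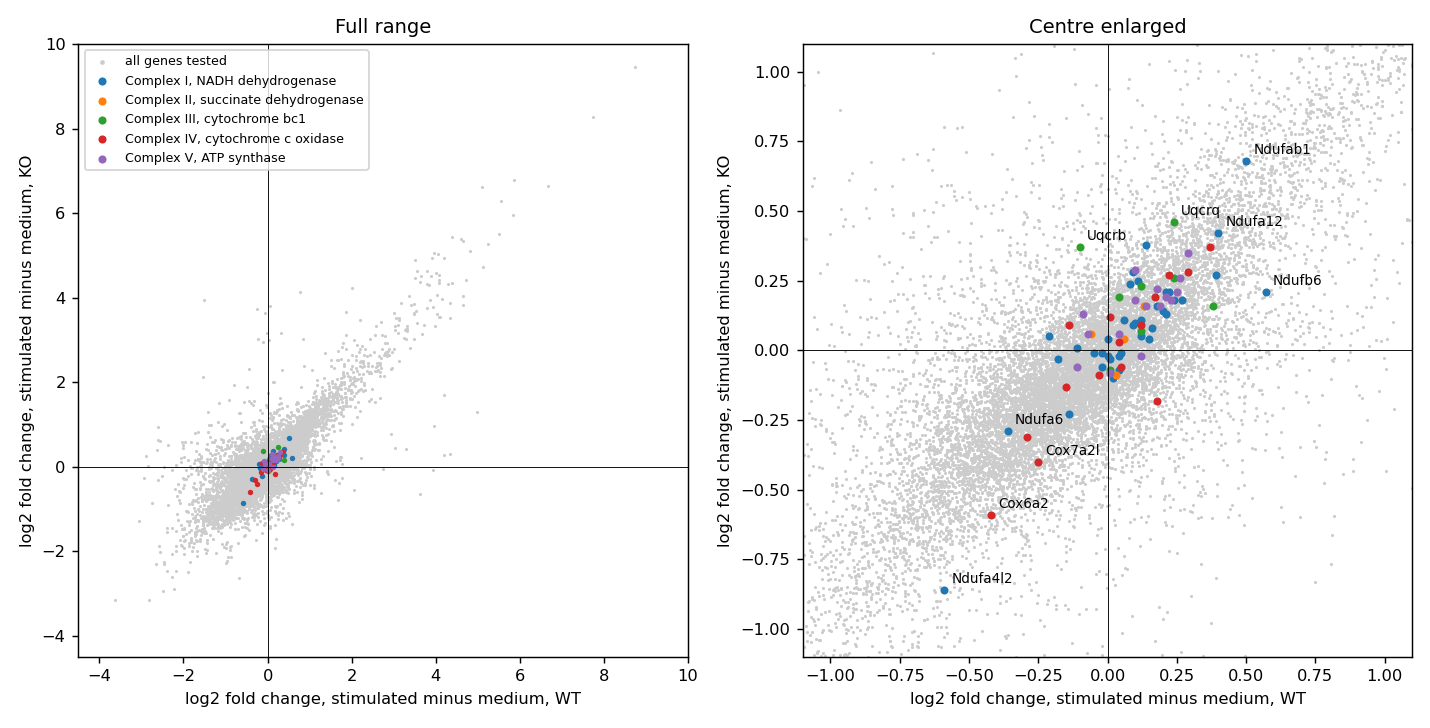
Log2 fold change after stimulation in WT (horizontal) and KO cells (vertical) for all 15134 tested genes (grey) and the 81 subunit genes coloured by complex, over the full range on the left and enlarged on the right. The subunit genes lie between -0.59 and 0.57 in WT and between -0.86 and 0.68 in KO cells.

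The changes of single subunits were small and mostly upward. The median log2 fold change of the 81 genes was 0.10 in WT and 0.10 in KO cells, and the median of all tested genes was -0.09 and -0.08. A positive sign was found for 60 of 81 in WT (74.1%, against 41.1% of all genes) and 56 of 81 in KO cells (69.1%, against 41.2%). WT values ran from -0.59 (Ndufa4l2) to 0.57 (Ndufb6), and KO values from -0.86 (Ndufa4l2) to 0.68 (Ndufab1). Of the 22 subunit genes with at least 2 probes past the filter, 16 had probes of the same sign in WT and 19 in KO cells. No subunit gene changed 2-fold, as 8.72% of all genes did in WT and 7.70% in KO cells.

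The size of change that the arrays leave room for was narrow for most subunits. The 95% confidence interval lay within 2-fold either way for 78 of 81 in WT cells (96.3%, against 66.1% of all genes) and for 77 of 81 in KO cells (95.1%, against 68.7%). It lay within 1.5-fold for 65 and 61 of them (80.2% and 75.3%, against 32.1% and 34.2% of all genes). Leaving out any 1 array kept the count within 2-fold between 75 and 78 in each genotype. The count within 1.5-fold fell to 48 without WT medium replicate 1, 29 and 37 without WT stimulated replicate 1 or 2, and 36 without KO stimulated replicate 1. The intervals are those of single genes and were not widened for their number.

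**Figure D2:**
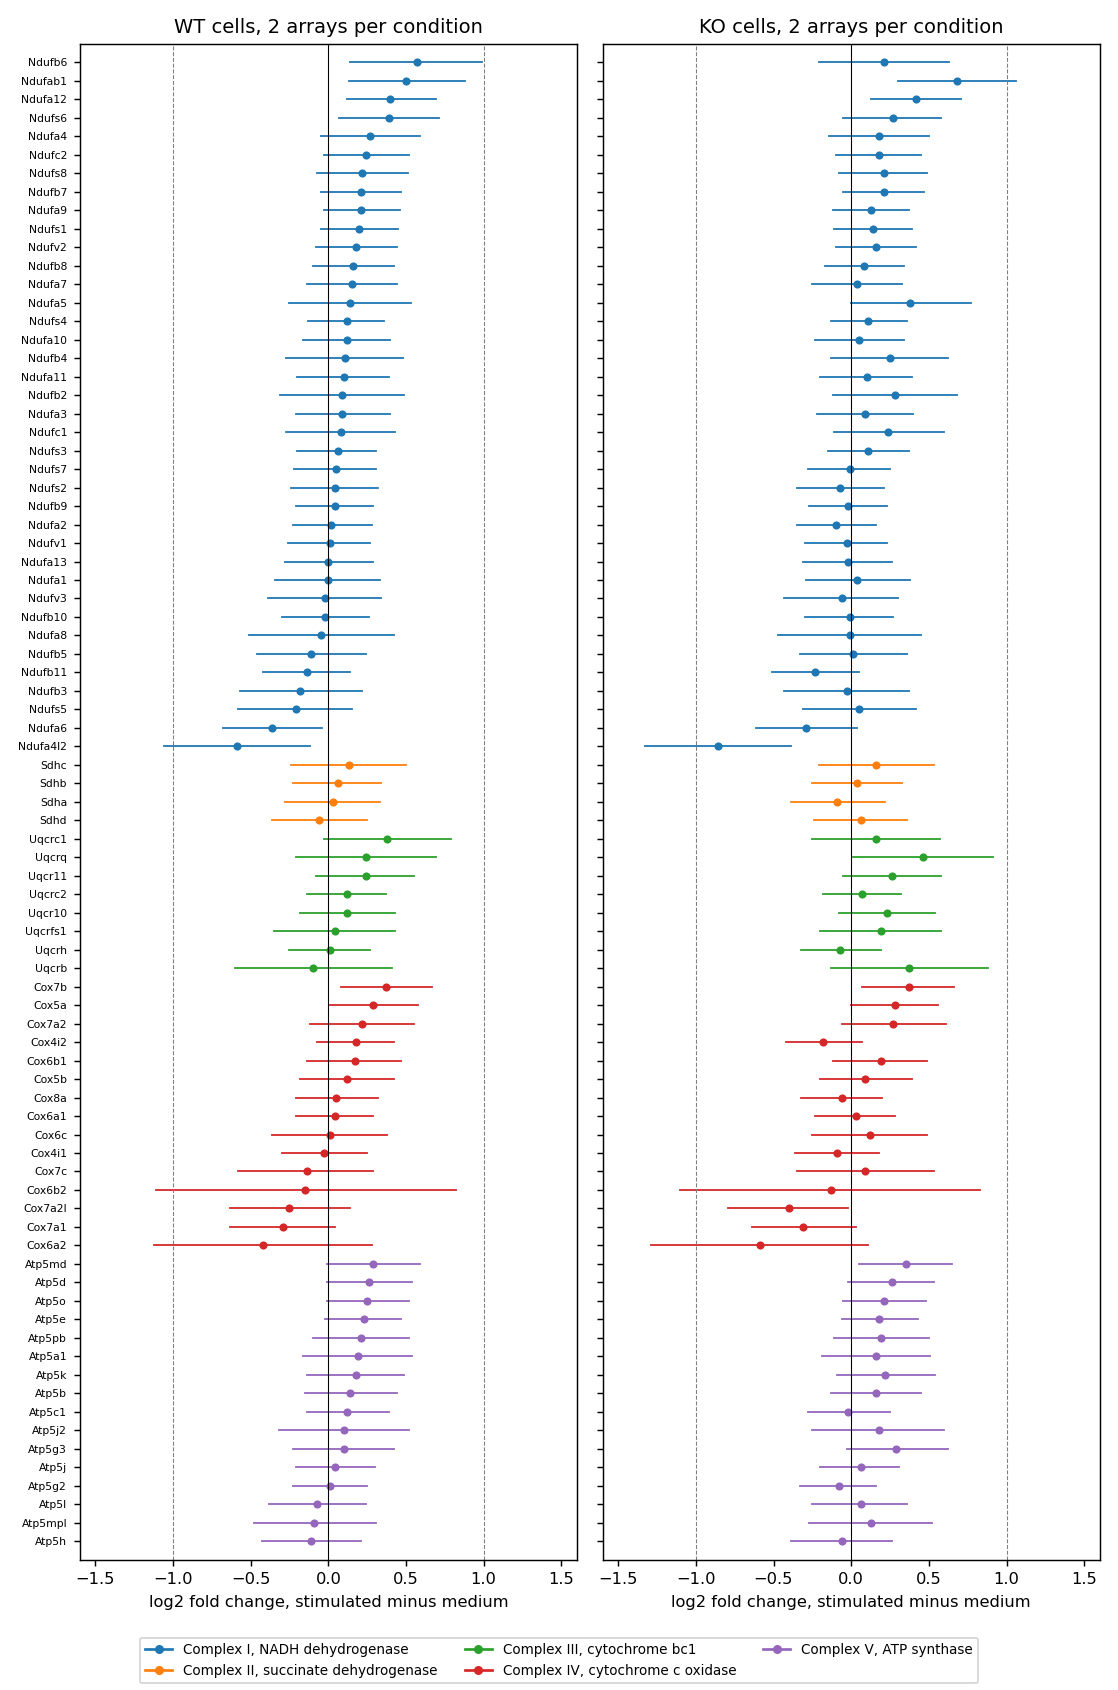
Log2 fold change after stimulation (point) with its 95% confidence interval (line) for each of the 81 subunit genes, WT on the left and KO on the right, grouped by complex. Dashed lines mark a 2-fold change, and most intervals lie between them while crossing 0.

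Arrays of a group often shared a direction. In WT cells the stimulated arrays were both above both medium arrays for 34 of 81 subunit genes (42.0%, against 27.4% of all genes) and both below for 7 (8.64%, against 42.1%). In KO cells the counts were 40 higher (49.4%, against 22.8%) and 9 lower (11.1%, against 28.6%). With 2 arrays against 2, an exact two-sided permutation test of 1 gene cannot go below p = 0.333. For 27 genes the stimulated arrays were higher in both genotypes (33.3%, against 17.9% of all genes). For 5, Ndufa4l2, Ndufa6, Ndufb11, Cox7a1 and Cox7a2l, they were lower in both (6.17%, against 21.3% of all genes). Across the 81 genes the WT and KO changes had a Pearson r of 0.804 and a Spearman rho of 0.741, over different arrays of 1 slide, and r over all genes was 0.820. Genes are not independent replicates, and no p is given.

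These medians moved with single arrays. In WT cells the median was 0.03 without WT medium replicate 2 (all genes -0.12) and 0.04 without WT stimulated replicate 2 (all genes -0.08). It was 0.13 without WT stimulated replicate 1 (all genes -0.09) and 0.14 without WT medium replicate 1 (all genes -0.07). In KO cells it was 0.00 without both replicate 2 arrays (all genes -0.11) and 0.18 without both replicate 1 arrays (all genes -0.03). The replicate 2 arrays are those with raised neutrophil, erythroid and cell cycle transcripts, and their part in the KO median was not tested.

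**Figure D3:**
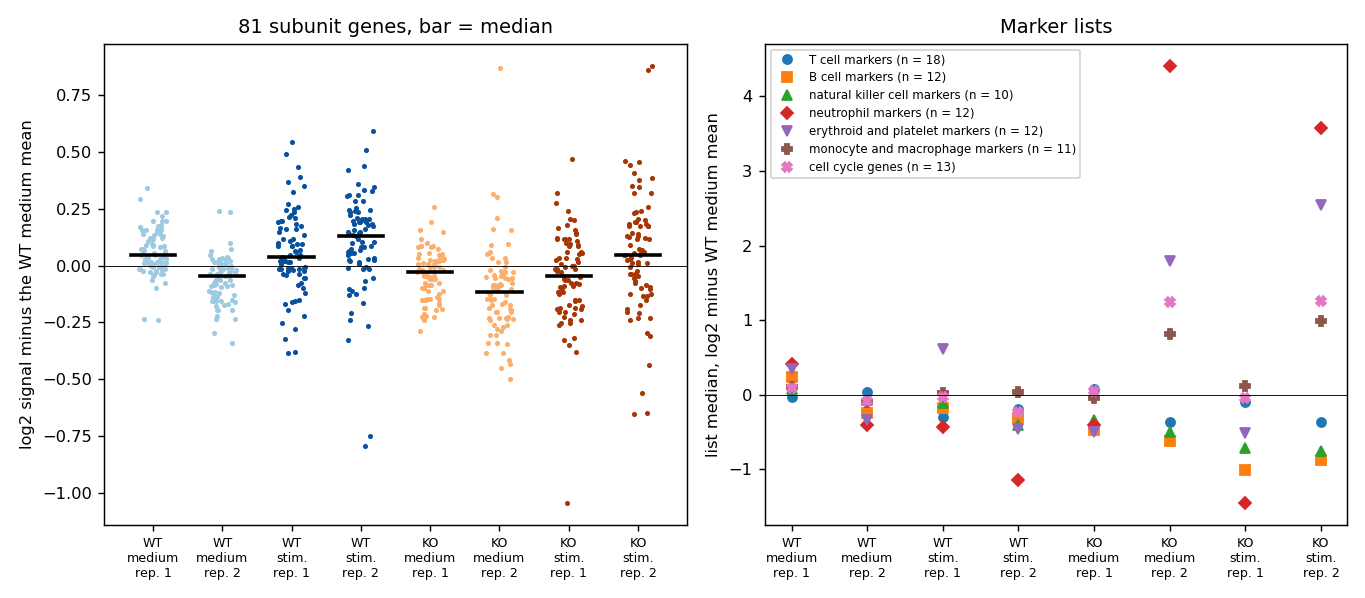
Left, log2 signal of the 81 subunit genes on each array minus the WT medium mean of the same gene, with the median as a bar. Right, the median of each marker list on the same arrays; the KO replicate 2 arrays stand highest for neutrophil markers, at 4.41 and 3.57, while the subunit medians of all 8 arrays lie between -0.12 and 0.13.

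Subunit levels varied little between arrays. The median relative to WT medium was 0.04 and -0.04 on the WT medium arrays, 0.04 and 0.13 on the stimulated WT arrays, -0.03 and -0.12 on the KO medium arrays, and -0.04 and 0.05 on the stimulated KO arrays. Over all tested genes the medians were, in the same order, 0.03 and -0.03, -0.08 and -0.09, -0.01 and -0.12, and -0.11 and -0.11. The array with the single lowest value was KO medium replicate 2 for 41 of 81 genes. Such extremes were not counted over all genes. The single highest value lay on WT stimulated replicate 2 for 32 genes and on WT medium replicate 1 for 24, while WT medium replicate 2 held it for 0 (ties at 2 decimals left out). The root mean square SD of the 81 genes between paired arrays of a group was 0.164 for WT medium, 0.118 for KO medium, 0.0875 for stimulated WT and 0.135 for stimulated KO cells. Over all tested genes it was 0.253, 0.431, 0.250 and 0.454.

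Complex I takes up NADH electrons at a flavin and carries them along iron-sulphur clusters. Its core genes stayed near their medium level. Ndufv1, the flavin-binding subunit, changed by 0.01 ± 0.11 in WT and -0.03 ± 0.11 in KO cells, and Ndufs1, the largest iron-sulphur subunit, by 0.20 ± 0.10 and 0.14 ± 0.10. Ndufa4, named for complex I and now placed with complex IV, changed by 0.27 ± 0.13 and 0.18 ± 0.13. The median over all 38 genes of the complex was 0.09 in WT and 0.08 in KO cells, and 28 and 25 of them were positive.

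The upper end of complex I was made of accessory subunits. Ndufab1 encodes the mitochondrial acyl carrier protein, which is a complex I subunit and also serves fatty acid and lipoic acid synthesis. Its signal was 0.23 and 0.05 on the unstimulated WT arrays and 0.63 and 0.65 on the stimulated ones, with 0.14 and 0.12 (medium) and 0.61 and 1.0 (stimulated) on those of KO cells. All 4 stimulated arrays lay above all 4 medium arrays. The change was 0.50 ± 0.16 in WT (1.42-fold, adjusted p = 0.0960) and 0.68 ± 0.16 in KO cells (1.6-fold, limma, adjusted p = 0.0533), and it did not pass in either genotype. Over the alternatives its adjusted p ran from 0.0496 to 0.335 in WT and from 0.0263 to 0.236 in KO cells, so the gene lies at the edge of the threshold.

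Ndufa12, an accessory subunit of the peripheral arm, had nearly the same change in both genotypes. Its signal was 4.48 and 4.54 (WT) and 4.46 and 4.41 (KO) without stimulation, and 4.88 and 4.95 (WT) and 4.75 and 4.97 (KO) with it. Stimulated arrays did not overlap with medium arrays, and the changes of 0.40 ± 0.12 and 0.42 ± 0.12 did not pass (limma, adjusted p = 0.0846 and 0.0896). Ndufs6, a zinc-binding subunit, was 0.39 ± 0.13 higher in WT (adjusted p = 0.113) and 0.27 ± 0.13 in KO cells (adjusted p = 0.264). Ndufa12, Ndufs6, Ndufa6, Uqcrq, Atp5md and Atp5d were singled out after their values were seen.

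Ndufb6, a membrane-arm accessory subunit, had the highest WT change, with 1 medium array apart from the others. Its signal was 3.58 and 4.05 on the unstimulated WT arrays and 4.36 and 4.41 on the stimulated ones, with 3.97 and 3.97 (medium) and 4.09 and 4.27 (stimulated) on those of KO cells. WT medium replicate 1 was the lowest of all 8, and the other 3 medium arrays read 3.97 to 4.05. The change was 0.57 ± 0.17 in WT (limma, adjusted p = 0.0940) and 0.21 ± 0.17 in KO cells. A further Ndufb6 probe gave 0.05 in WT cells, so the probes of this gene disagreed in size.

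Ndufa4l2 stood at the lower end. It encodes a relative of Ndufa4 that is induced by low oxygen in many cell types. Its signal was -2.70 and -2.85 (WT) and -2.78 and -2.74 (KO) without stimulation, and -3.16 and -3.57 (WT) and -3.82 and -3.43 (KO) with it. Every stimulated array was below every medium array. The change was -0.59 ± 0.19 in WT (1.51-fold lower, adjusted p = 0.107) and -0.86 ± 0.19 in KO cells (1.81-fold lower, limma, adjusted p = 0.0503). Its adjusted p over the alternatives ran from 0.0422 to 0.402 and from 0.0211 to 0.178.

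Ndufa6, an accessory subunit of the LYR-motif family that binds the acyl carrier protein, was lower as well. Its signal was 5.51 and 5.43 on the unstimulated WT arrays and 5.09 and 5.14 on the stimulated ones, with 5.41 and 5.19 (medium) and 5.12 and 4.91 (stimulated) on those of KO cells. The stimulated arrays lay below the medium arrays of their genotype. The change was -0.36 ± 0.13 in WT and -0.29 ± 0.13 in KO cells (limma, adjusted p = 0.137 and 0.242). The products of Ndufa6 and Ndufab1 touch in the complex; their changes had opposite signs, and neither passed the test.

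**Figure D4:**
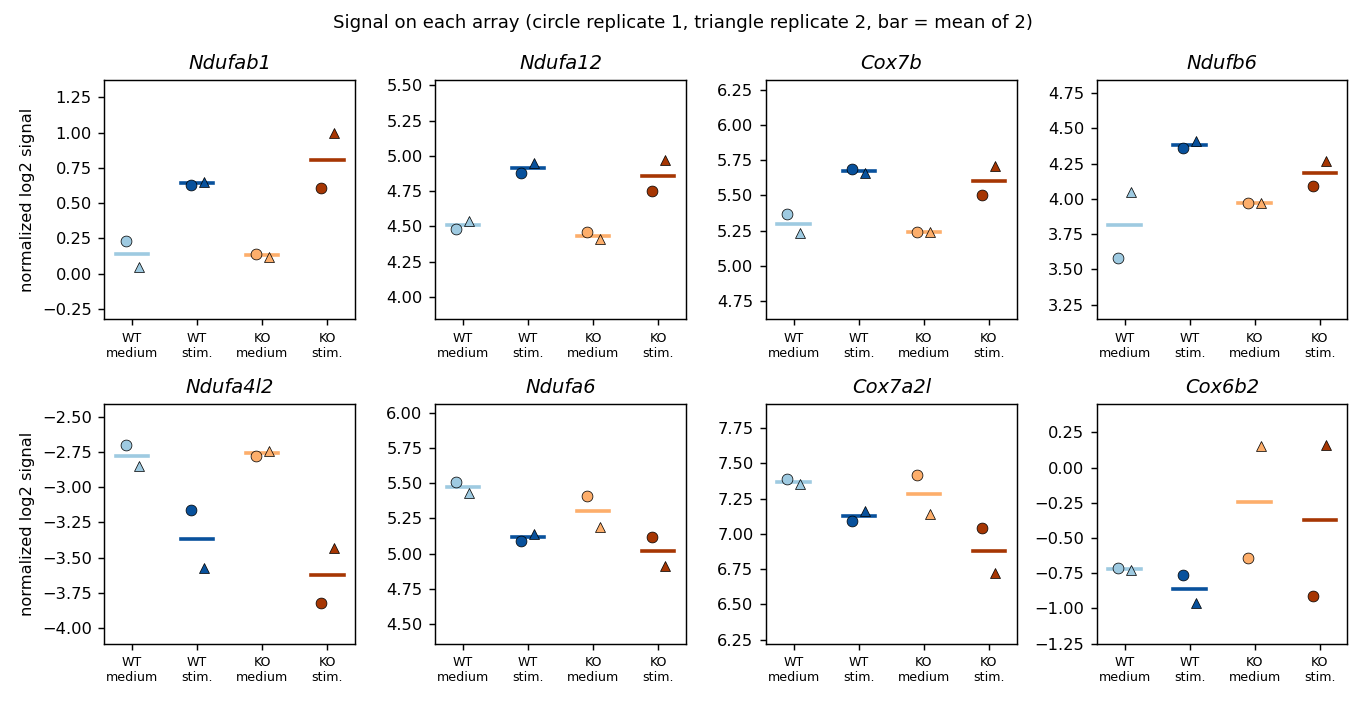
Normalized log2 signal of 8 subunit genes on each array (circle replicate 1, triangle replicate 2, bar the mean of 2), with the same height of axis in every panel. Ndufab1, Ndufa12 and Cox7b are higher on all stimulated arrays, Ndufa4l2 and Ndufa6 are lower on the stimulated arrays of each genotype, and Cox6b2 is high on both KO replicate 2 arrays.

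Complex II is the complex that is also an enzyme of the citric acid cycle. Its 4 genes changed by -0.06 to 0.13 in WT and by -0.09 to 0.16 in KO cells. Sdha, the flavoprotein that oxidises succinate, read 5.14 and 5.08 (WT) and 5.14 and 4.92 (KO) without stimulation, and 5.09 and 5.19 (WT) and 5.02 and 4.87 (KO) with it. Its change of 0.03 ± 0.13 in WT had a 95% interval from -0.28 to 0.33. For Sdhb, the iron-sulphur subunit, the changes were 0.06 ± 0.12 and 0.04 ± 0.12. The membrane anchors Sdhc and Sdhd gave 0.13 ± 0.15 and -0.06 ± 0.12 in WT cells.

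Complex III had positive signs in 7 of 8 genes in each genotype, with medians of 0.12 in WT and 0.21 in KO cells. Uqcrc1, a core subunit, read 3.19 and 3.67 on the unstimulated WT arrays and 3.78 and 3.85 on the stimulated ones, with 3.58 and 3.64 (medium) and 3.75 and 3.78 (stimulated) on those of KO cells. As for Ndufb6, WT medium replicate 1 stood lowest of all, and the change was 0.38 ± 0.17 in WT and 0.16 ± 0.17 in KO cells (limma, adjusted p = 0.191 and 0.606). Uqcrfs1, the Rieske iron-sulphur protein, changed by 0.04 ± 0.16 and 0.19 ± 0.16. Uqcrq, a small accessory subunit, was 0.24 ± 0.18 and 0.46 ± 0.18 higher (adjusted p = 0.429 and 0.189).

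Uqcrb, a ubiquinone-binding subunit, had the largest difference between the KO and the WT change among the 81 genes. Its signal was 5.18 and 4.59 (WT) and 4.67 and 4.45 (KO) without stimulation, and 4.81 and 4.78 (WT) and 4.86 and 5.0 (KO) with it. WT medium replicate 1 was here the highest of all arrays. The KO change minus the WT change was 0.47 ± 0.29 (limma, adjusted p = 1.0), with a 95% interval from -0.25 to 1.19. Its 3 probes gave -0.10 to 0.19 for stimulation in WT cells.

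Complex IV had medians of 0.04 in WT and 0.03 in KO cells over the 15 genes that passed the filter. Cox7b, a small X-linked subunit, read 5.37 and 5.23 on the unstimulated WT arrays and 5.69 and 5.66 on the stimulated ones, with 5.24 and 5.24 (medium) and 5.50 and 5.71 (stimulated) on those of KO cells. Every stimulated array lay above every medium array. The changes of 0.37 ± 0.12 in each genotype did not pass (limma, adjusted p = 0.105 and 0.127). Cox5a, which sits on the matrix side, was 0.29 ± 0.12 and 0.28 ± 0.12 higher (adjusted p = 0.159 and 0.203), and its neighbour in name Cox5b changed by 0.12 ± 0.12 and 0.09 ± 0.12.

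Several complex IV subunits exist as a common form and a form typical of muscle, lung or testis. The common forms lay near or above 0: Cox4i1 changed by -0.03 and -0.09 (WT and KO), Cox6a1 by 0.04 and 0.03, Cox6b1 by 0.17 and 0.19, Cox7a2 by 0.22 and 0.27, and Cox8a by 0.05 and -0.06. The alternative forms mostly lay below 0. Cox6a2 changed by -0.42 ± 0.29 and -0.59 ± 0.29, Cox7a1 by -0.29 ± 0.14 and -0.31 ± 0.14, and Cox6b2 by -0.15 ± 0.40 and -0.13 ± 0.40, while Cox4i2 gave 0.18 ± 0.10 and -0.18 ± 0.10. None of these genes passed the test, and the difference between common and alternative forms was not tested.

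Cox6a2 varied between the replicates of the WT groups. Its signal was 0.29 and -0.39 (WT) and 0.14 and 0.11 (KO) without stimulation, and -0.15 and -0.80 (WT) and -0.43 and -0.49 (KO) with it. The WT groups overlapped and the KO groups did not. Cox7a2l, a factor for supercomplexes of complex III and complex IV, read 7.39 and 7.35 on the unstimulated WT arrays and 7.09 and 7.16 on the stimulated ones, with 7.42 and 7.14 (medium) and 7.04 and 6.72 (stimulated) on those of KO cells. Stimulated arrays were lower than medium arrays in each genotype. The change was -0.25 ± 0.16 in WT and -0.40 ± 0.16 in KO cells (limma, adjusted p = 0.341 and 0.180).

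ATP synthase genes had positive signs in 13 of 16 in each genotype, with medians of 0.13 in WT and 0.17 in KO cells. Their range was -0.11 to 0.29 in WT and -0.08 to 0.35 in KO cells. The catalytic core stayed near its medium level: Atp5a1, the alpha subunit, changed by 0.19 ± 0.14 and 0.16 ± 0.14, and Atp5b, the beta subunit that carries the catalytic site, by 0.14 ± 0.12 and 0.16 ± 0.12. Atp5c1, the gamma subunit that turns inside the catalytic core, changed by 0.12 ± 0.11 and -0.02 ± 0.11. Atp5b read 7.15 and 7.02 (WT) and 7.09 and 7.0 (KO) without stimulation, and 7.18 and 7.27 (WT) and 7.12 and 7.29 (KO) with it. All 4 stimulated values exceeded the medium values of their own genotype by small steps.

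Among the ATP synthase genes at the upper end were a membrane and a stalk subunit. Atp5md, a small membrane subunit that helps link ATP synthase into dimers, read 5.25 and 5.03 on the unstimulated WT arrays and 5.41 and 5.45 on the stimulated ones, with 5.0 and 4.91 (medium) and 5.25 and 5.37 (stimulated) on those of KO cells. It was higher by 0.29 ± 0.12 and 0.35 ± 0.12 (limma, adjusted p = 0.184 and 0.144). Atp5d, the delta subunit of the central stalk, was higher by 0.26 ± 0.11 in each genotype (adjusted p = 0.184 and 0.222). The membrane ring genes Atp5g2 and Atp5g3 gave 0.01 and 0.10 in WT and -0.08 and 0.29 in KO cells.

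Loss of Lsp1 was compared in medium and after stimulation. No subunit gene was called in either comparison, with 0.00661% of all genes called in medium (1 gene, Lsp1 itself) and 0.0198% after stimulation (3 genes). At an unadjusted p below 0.05 there were 2 subunit genes in medium (2.47%, against 5.72% of all genes) and 0 after stimulation (against 5.02%). The median KO minus WT difference was -0.07 in medium and -0.08 after stimulation, against -0.06 and -0.04 over all genes. The 95% interval lay within 2-fold for 80 of 81 subunit genes in each comparison (98.8%, against 78.1% and 79.9%).

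Small differences nonetheless ran mostly 1 way after stimulation. The sign was negative for 65 of 81 subunit genes in medium and for 71 of 81 after stimulation, including all 16 ATP synthase and all 4 complex II genes. Over all genes 39.8% of signs were positive in medium and 40.9% after stimulation. In medium the KO arrays were both below the WT arrays for 24 genes (29.6%, against 21.3% of all genes) and both above for 5 (6.17%, against 12.8%). After stimulation they were both below for 43 (53.1%, against 24.8%) and both above for 2 (2.47%, against 13.2%). This count depended on the scaling: with quantile normalization 21 were below and 7 above (all genes 19.5% and 16.0%), 51 signs were negative, and the median was -0.02. Which scaling is closer to the cells was not tested.

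The genes with the smallest p in medium were Cox4i2, Atp5mpl and Ndufa5. Cox4i2, the lung-type and oxygen-responsive form of cytochrome c oxidase subunit 4, read -1.44 and -1.38 in WT medium and -1.15 and -1.11 in KO medium. The KO arrays were higher by 0.28 ± 0.10 (limma, unadjusted p = 0.0305, adjusted p = 0.736). Atp5mpl, a small membrane protein attached to ATP synthase, read 5.93 and 5.57 in WT medium and 5.46 and 5.25 in KO medium, a difference of -0.40 ± 0.16 (limma, unadjusted p = 0.0492, adjusted p = 0.736). Ndufa5, a peripheral-arm accessory subunit, differed by -0.32 ± 0.16 (adjusted p = 0.736).

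After stimulation the smallest p belonged to Sdha, Uqcrh and Cox7a2l, all lower in KO cells. The differences were -0.20 ± 0.13 for Sdha, -0.17 ± 0.11 for Uqcrh, the acidic hinge protein next to cytochrome c1, and -0.24 ± 0.16 for Cox7a2l (limma, adjusted p = 0.932 for each). The highest KO values belonged to Cox6b2, the testis form of subunit 6b, at 0.47 ± 0.40 in medium and 0.49 ± 0.40 after stimulation. Its signal was -0.71 and -0.73 (WT) and -0.64 and 0.15 (KO) without stimulation, and -0.76 and -0.96 (WT) and -0.91 and 0.16 (KO) with it. The 2 KO replicate 2 arrays alone were high, and they are the arrays with raised neutrophil markers. KO medium replicate 1 lay just above the WT values, and KO stimulated replicate 1 lay among them.

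The KO response was also tested against the WT response gene by gene. No subunit gene was called (0 of 81, against 0.00661% of all genes), and 1 had an unadjusted p below 0.05 (1.23%, against 3.01%). That gene was Cox4i2, at -0.35 ± 0.14 (limma, adjusted p = 1.0). It read -1.44 and -1.38 on the unstimulated WT arrays and -1.25 and -1.22 on the stimulated ones, with -1.15 and -1.11 (medium) and -1.27 and -1.34 (stimulated) on those of KO cells. Stimulated arrays were higher than medium arrays in WT and lower in KO cells. Ndufb6 (-0.35 ± 0.25) and Uqcrb (0.47 ± 0.29) followed, each with WT medium replicate 1 apart from the other medium arrays. The 2 Ndufb6 probes differed in sign here, at -0.35 and 0.18, while the 3 Uqcrb probes ran from 0.12 to 0.53. The median difference over the subunit genes was -0.01, and the 95% interval lay within 2-fold for 78 of 81 (96.3%, against 67.8% of all genes).

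Other genes of the mitochondrion were taken from lists that do not overlap with the subunits. Genes for protein import and inner membrane organisation held the most calls. Of 22 tested, 11 rose and 0 fell in WT cells, where 6.42% of all genes rose and 3.83% fell. In KO cells 10 rose and 0 fell, where 5.85% of all genes rose and 2.28% fell. The medians were 0.52 and 0.58. Timm8a1, a small chaperone of the intermembrane space, read 1.89 and 1.76 (WT) and 1.77 and 1.81 (KO) without stimulation, and 3.27 and 3.20 (WT) and 3.07 and 3.60 (KO) with it. It rose by 1.41 ± 0.19 and 1.54 ± 0.19 (limma, adjusted p = 0.0110 and 0.00818), and Timm10, a small chaperone of the same family, rose 2.01-fold and 2.61-fold (adjusted p = 0.0277 and 0.0111). Hspd1, the matrix chaperonin, rose 2.10-fold in WT and 2.44-fold in KO cells (adjusted p = 0.0292 and 0.0178).

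The calls in this list changed with the arrays that entered, and its median moved less. The WT count was 0 without WT medium replicate 1 or without either stimulated WT array, 1 without WT medium replicate 2, and 5 without either KO medium array, with medians from 0.47 to 0.53. The KO count was 5 without KO medium replicate 1, KO stimulated replicate 2 or either stimulated WT array, 2 without KO medium replicate 2, 1 without both KO replicate 2 arrays and 0 when the 4 KO arrays were fitted by themselves. The KO medians ran from 0.41 to 0.69.

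Assembly factors, which build the complexes and are not part of them, had a median of 0.07 in each genotype over 49 genes. In WT cells 3 of 49 rose and 0 fell, where 6.42% of all genes rose and 3.83% fell. In KO cells 3 of 49 rose and 0 fell, where 5.85% of all genes rose and 2.28% fell. Ndufaf4, a complex I assembly factor, read 1.67 and 1.96 on the unstimulated WT arrays and 3.19 and 3.14 on the stimulated ones, with 1.86 and 1.82 (medium) and 3.0 and 3.49 (stimulated) on those of KO cells. It rose 2.54-fold and 2.65-fold (limma, adjusted p = 0.0131 and 0.0112, and up to 0.10 and 0.111 over the alternatives) in WT and KO cells. The largest rise of a complex I gene was 1.6-fold (Ndufab1 in KO cells), and the largest fall was 1.81-fold (Ndufa4l2 in KO cells). Sco2, a copper chaperone for complex IV, rose 1.92-fold and 1.91-fold (adjusted p = 0.0147 in each genotype).

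Among 21 genes of electron carriers and ubiquinone synthesis, 2 rose and 1 fell in WT cells and 2 rose in KO cells, with medians of 0.09 and 0.14. Over all genes 6.42% rose and 3.83% fell in WT cells, and 5.85% rose and 2.28% fell in KO cells. Cycs, somatic cytochrome c, rose by 0.85 ± 0.12 and 0.88 ± 0.12 (limma, adjusted p = 0.0135 and 0.0120, and up to 0.117 and 0.132 over the alternatives). Its signal was 4.70 and 4.64 (WT) and 4.50 and 4.63 (KO) without stimulation, and 5.54 and 5.50 (WT) and 5.34 and 5.54 (KO) with it. Pdss1, which makes the ubiquinone side chain, rose 2.18-fold and 2.34-fold (adjusted p = 0.0381 and 0.0323). Sqor, which passes electrons from sulphide to ubiquinone, fell by 0.88 ± 0.17 in WT cells (adjusted p = 0.0301), and its change in KO cells was -0.66 ± 0.17 (adjusted p = 0.0710).

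The remaining lists changed in few genes, beside shares over all genes of 6.42% higher and 3.83% lower in WT cells. In KO cells these shares were 5.85% higher and 2.28% lower. Of 22 genes that copy or transcribe mitochondrial DNA or regulate nuclear mitochondrial genes, 3 rose in WT and 2 in KO cells (medians 0.00 and -0.04). They include Pprc1, a coactivator of the PGC-1 family, which rose 1.97-fold and 2.71-fold (limma, adjusted p = 0.0427 and 0.0151), and Top1mt, the mitochondrial topoisomerase (1.55-fold and 1.73-fold, adjusted p = 0.0305 and 0.0165). Nrf1 and Gabpa, whose products bind the promoter letters above and which were picked for that after their values were seen, changed by 0.02 each in WT and by 0.03 and -0.08 in KO cells. Of 19 citric acid cycle enzymes only Idh3a, a subunit of isocitrate dehydrogenase, rose, by 0.70 ± 0.16 in WT cells (adjusted p = 0.0499, and 0.0304 to 0.253 over the alternatives), with 0.52 ± 0.16 in KO cells (adjusted p = 0.115). Of 9 carriers of nucleotides and phosphate and uncoupling proteins, Slc25a24, a carrier for ATP-magnesium and phosphate, fell by 0.62 ± 0.12 and by 0.54 ± 0.12 (adjusted p = 0.0291 and 0.0461). All 12 WT calls named from these 6 lists ended without WT medium replicate 1 or without either stimulated WT array, and all but those of Ndufaf4 and Sco2 without WT medium replicate 2. All 10 named KO calls ended without KO medium replicate 2 and when the KO arrays were fitted by themselves. Without both KO replicate 2 arrays the KO counts of the assembly, electron carrier, mitochondrial DNA and nucleotide carrier lists were 0.

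**Figure D5:**
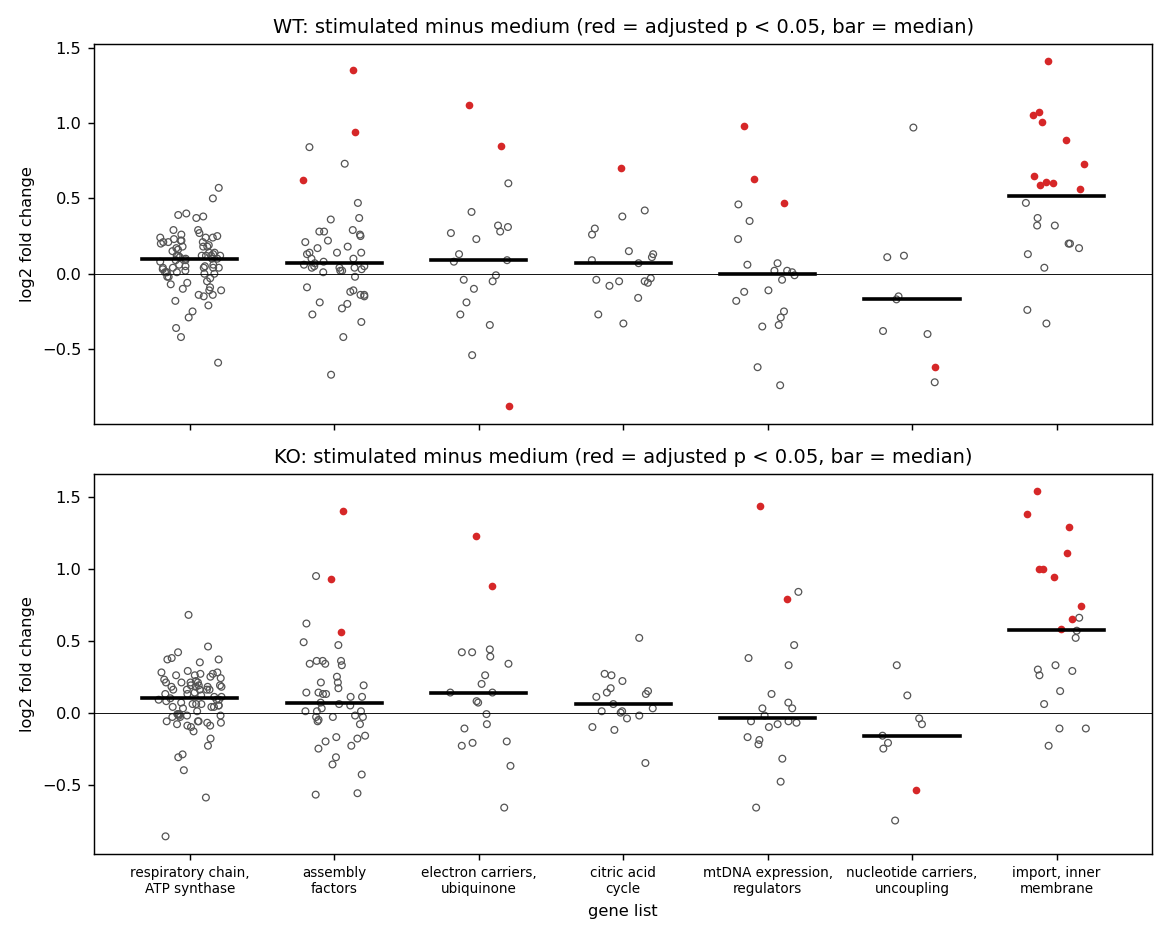
Log2 fold change after stimulation in WT (top) and KO cells (bottom) for the 81 subunit genes and 6 other mitochondrial gene lists; each circle is a gene, red marks an adjusted p below 0.05 and bars are medians. No subunit gene is red, and the import and inner membrane list has the highest median, 0.52 in WT and 0.58 in KO cells.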

How the data were processed

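Each array's deposited file, written by Agilent Feature Extraction per the file headers, gives spot intensities on a linear scale after that program's background subtraction. The log2 values used here are log2 of that deposited processed intensity minus the array's 75th percentile over non-control, non-outlier spots, with spots of a probe averaged. The deposited series table holds the scanner's median intensity and served as an alternative. The share of probes well above background was 69.27% and 68.76% on the WT medium arrays and 59.31% and 58.42% on the stimulated WT arrays. On the KO arrays it was 65.49% and 60.22% in medium and 59.65% and 61.05% after stimulation. The part of this in the changes of dim genes was not tested. The 75th percentile of signal ran from 1200.5 to 1469.0. The 2 arrays per group limit the precision. A probe entered the fit if the scanner called it well above background on each array of some group (37259 of 55681). Names came from accessions matched to a RefSeq table of GRCm38.p6 (26056 probes named, 29625 not named here), while the headers name the build mm9, so promoter coordinates are those of the RefSeq table.

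A mean per group was fitted with limma 3.58.1 in R 4.3.3 (with the package data.table, version 1.17.8) over all 8 arrays (4 residual degrees of freedom plus 2.11 from the moderated variance), with 5 contrasts, two-sided p and Benjamini-Hochberg adjustment over 15134 genes. Tested on simulated data for stimulation in WT (15134 genes), the fit recovered 0% of genes changed by 0.5 on the log2 scale, 44% at 1, 68% at 2 and 86% at 3. The simulation changed 50 genes at each size and left 14934 unchanged, while 1552 genes were called in the real WT comparison. The adjustment is stricter where fewer genes change, so these shares need not hold for the real data. Named genes are the fixed key subunits, called genes, the 3 smallest p of each genotype contrast, the 2 largest called genes per direction of each other list, and Lsp1, besides those marked as chosen after their values were seen. The subunit genes, lists and tests were chosen with earlier results of these data known. Stimulation and genotype lie in different positions of 1 slide, so group cannot be told apart from position. The sources used here do not say how T cells were purified.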

Additional observations from a re-analysis of the deposited data

How the results depend on the processing

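With 2 arrays per group, changes are called only where they are large beside the spread between arrays. No called gene that the text names changed sign under an alternative; over all single-gene values and alternatives, a call was lost 122 times and gained 22 times. Calls over all genes are given in brackets. The count of subunit genes called for stimulation in WT was 1 with no filter on dim probes (3003). The gene was Cox7b2, not well above background on both arrays of any group. It was also 1 in a fit of the groups compared (Ndufab1, 2709). Leaving out both KO replicate 2 arrays gives that same fit for this contrast, as 1 array per KO group adds no spread. So does leaving out both KO replicate 1 arrays, chosen after seeing the data. In KO the count was 1 with normexp background correction on the median signal, chosen after seeing the data (1410). It was 1 with the deposited value table (1405) and 1 with the percentile over probes, also chosen after seeing the data (1305). It was 2 with quantile normalization (1312) or with only probes above background on all arrays (1397). These were Ndufab1 and, where 2 were called, Ndufa4l2. The KO change of Ndufab1 ran from 0.47 to 0.88 over the alternatives. The KO median was 0.00 without both KO replicate 2 arrays and 0.18 without both replicate 1 arrays (all genes -0.11 and -0.03). There the difference between both responses had medians of -0.09 and 0.08 (all genes -0.01 and 0.06). After stimulation the KO minus WT difference of Cox6b2 ran from -0.05 to 1.02 over the alternatives. Its signal was high only on the KO replicate 2 arrays. Leaving out 1 array at a time, the called counts ran from 0 to 0 in WT, from 0 to 1 in KO (Ndufab1, without KO stimulated replicate 1) and 0 in the other contrasts. The medians ran from 0.03 to 0.14 in WT, from 0.06 to 0.15 in KO, from -0.12 to -0.03 for KO minus WT in medium, from -0.12 to -0.05 after stimulation and from -0.05 to 0.04 for the difference. Calls over all genes ran from 199 to 1751 in WT and from 366 to 1483 in KO, against 1552 and 1231, and were 3003 with no filter in WT and 38 when the KO arrays were fitted by themselves. The cause of these shifts was not tested.

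The labels do not say that a replicate number marks a shared animal or day. Deviations of same-numbered arrays from their group means correlated at 0.743 between the KO groups, 0.162 between the WT groups and -0.244 between the stimulated groups. A replicate block over all arrays left 0 subunit genes called in WT and 0 in KO, with 1558 and 1149 genes called in all. A replicate block within genotype called 3 in WT (Cox6a2, Ndufa4l2 and Ndufb6) and 3 in KO (Cox6a2, Ndufa4l2 and Ndufab1), with 3520 and 2786 genes in all. With the numbers crossed between genotypes, a replicate block added after seeing the data called 0 in WT and 1 in KO. Over all genes that block called 1691 and 1393.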
